A study of Mus musculus with 4 samples.

Results

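The T cell receptor beta chain is assembled in the thymus when the RAG1 and RAG2 recombinase joins a variable (V), a diversity (D) and a joining (J) segment of the *Trb* locus. Nucleotides are trimmed and added at both joints, so the third complementarity-determining region (CDR3), which spans the joints, differs from cell to cell. A cell passes its beta chain on to its progeny, and cells that share one are counted as a clone. Germline segments are used unequally in mice, and the V segment also fixes the CDR1 and CDR2 loops, which mostly contact the MHC molecule.

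The use of V and J segments was measured in hepatic CD4+ T cells by a 5′ single-cell kit that reads both RNA and receptor chains. The control mice were WT. The others (dKO) carried floxed alleles (fl/fl) of *Nr4a1* and of *Nr4a2* with *Cd4*-Cre, in which the *Cd4* promoter drives Cre, so that both floxed genes are targeted in T cells. All were male and were fed a choline-deficient diet with 60 kcal% fat and 0.1% methionine for 8 weeks. Their age is not given in the sources used here. Cells of 2 mice per genotype were pooled into 1 library each. Nothing in the files tells the mice apart, so no test between genotypes was possible. Intervals in parentheses are exact 95% intervals and cover counting error only. They are Clopper-Pearson intervals for shares, Poisson intervals for levels in CPM (UMIs of a gene per 1000000 UMIs of the cells summed), and binomial intervals, given the summed count, for ratios of 2 shares.

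The members are all V and J values of the 7802 TRB contigs in both libraries, taken from the contig with most UMIs in each cell. After the cell filter, 7551 of 28018 cells had a TRB contig, 3455 of 10556 in the library labelled WT (32.7%) and 4096 of 17462 in that labelled dKO (23.5%). A beta clonotype is a distinct combination of V, J and CDR3 nucleotides within a library. There were 2068 clonotypes in the library labelled WT, 1795 of them found in 1 cell, and 1985 in that labelled dKO, 1543 of them found in 1 cell. The contigs had a median of 6 UMIs (unique molecular identifiers) in both libraries, with a range of 1 to 48 and of 1 to 42.

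The targeted genes go against the labels in these cells. The library labelled WT held *Nr4a1* at 701 CPM (684 to 718) and *Nr4a2* at 185 CPM (176 to 193). Both were higher under the dKO label, *Nr4a1* at 1776 CPM (1750 to 1803) and *Nr4a2* at 367 CPM (355 to 379). UMIs were not separated by exon, so RNA of the exons outside the floxed parts is included, and the libraries are called by their labels throughout. Other measures run the way the labels say. The study reports more *Foxp3*+ regulatory T cells and more highly expanded clones in dKO mice. Here 29.6% of TRB cells under the dKO label and 6.83% under the WT label had a *Foxp3* UMI, and the largest clonotypes held 475 and 87 cells. An exchange of labels was not tested. All 5 T cell markers were found, with summed levels of 2963 and 4109 CPM. Summed markers of plasmacytoid dendritic cells had 459 and 918 CPM, of myeloid cells 227 and 260, of endothelial cells 103 and 70.7, of neutrophils 3.30 and 162, of B cells 17.7 and 23.3, of CD8 T cells 15.4 and 40.4 and of hepatocytes 2.57 and 1.94 CPM. Their part in the results was not tested. The libraries shared 245 barcodes in the RNA tables and 25 in the TRB tables, and 0 of these 25 had the same beta clonotype.

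The sequences that carry the results are the CDR3 nucleotides of the largest clonotypes and the germline segments they were built from. In the CDR3 lines below, capitals mark the bases between the V and J germline matches, where the D segment and added nucleotides lie, and the lower-case ends match the V and the J germline. The 3 largest clonotypes of the library labelled WT come first, with 87, 68 and 68 cells, then those of the library labelled dKO, with 475, 86 and 78 cells.
Trbv13-1 with Trbj2-2, 87 cells: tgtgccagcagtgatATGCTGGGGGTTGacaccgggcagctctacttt
Trbv13-1 with Trbj2-5, 68 cells: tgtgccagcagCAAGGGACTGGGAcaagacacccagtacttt
Trbv31 with Trbj2-3, 68 cells: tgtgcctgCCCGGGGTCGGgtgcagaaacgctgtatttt
Trbv13-1 with Trbj2-4, 475 cells: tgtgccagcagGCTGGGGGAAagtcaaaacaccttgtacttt
Trbv13-1 with Trbj2-5, 86 cells: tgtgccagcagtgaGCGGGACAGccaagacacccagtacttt
Trbv1 with Trbj2-1, 78 cells: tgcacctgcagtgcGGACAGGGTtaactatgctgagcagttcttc

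Of these 6 clonotypes, 4 used *Trbv13-1*, and all 6 used a segment of the second J cluster. Their V parts kept between 8 and 15 germline bases and their J parts between 18 and 22. The D segments and the J segments that recur below have the following germline sequences in GENCODE M21, where capitals in a J segment mark the part that enters the CDR3 and the D segments are in capitals throughout.
Trbd1: GGGACAGGGGGC
Trbd2: GGGACTGGGGGGGC
Trbj1-5: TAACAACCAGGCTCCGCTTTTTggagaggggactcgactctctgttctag
Trbj1-6: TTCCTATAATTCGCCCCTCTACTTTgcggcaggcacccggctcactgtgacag
Trbj2-3: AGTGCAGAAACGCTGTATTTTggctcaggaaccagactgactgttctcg
Trbj2-4: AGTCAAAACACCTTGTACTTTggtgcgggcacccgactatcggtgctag
Trbj2-7: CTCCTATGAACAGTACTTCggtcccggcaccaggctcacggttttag
The locus lies on chromosome 6 of GRCm38, the assembly also called mm10. *Trbv1* is the outermost V segment, from 40891229 to 40891885, 641 kb from *Trbd1*. *Trbd1* runs from 41533201 to 41533212. *Trbj2-7* runs from 41543810 to 41543856, and *Trbv31* lies behind the constant genes from 41557691 to 41558452 on the opposite strand.

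The deposited V names were checked against the germline by sequence. Contigs named TRBV10 carried the sequence that the annotation calls *Trbv4*, and *Trbv10* is a pseudogene there. The 263 cells with such a contig held 133 *Trbv4* UMIs in the RNA library and 0 *Trbv10* UMIs. Contigs named TRBV12-2+TRBV13-2 carried the sequence of *Trbv13-2*, with 2503 *Trbv13-2* and 112 *Trbv12-2* UMIs in 714 cells. The names by sequence are used here. With these, 21 of the 22 annotated V genes were in use, all but *Trbv21*, and 12 of the 13 annotated J genes, all but *Trbj1-7*. None of the 13 V and 1 J pseudogenes was seen among the contigs, while in the RNA libraries the pseudogene *Trbv24* had 84 and 33 UMIs in TRB cells.

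Both libraries drew most of their clonotypes from the same 6 V segments, *Trbv13-2*, *Trbv5*, *Trbv1*, *Trbv3*, *Trbv31* and *Trbv13-1*, which held 56.5% of clonotypes in the library labelled WT and 58.1% in that labelled dKO. *Trbv13-2*, which encodes the Vβ8.2 chain, led the first library with 289 clonotypes, 14.0% (12.5 to 15.5), and had 232, 11.7% (10.3 to 13.2), in the other. *Trbv5* led the second with 240 clonotypes, 12.1% (10.7 to 13.6), and had 197, 9.53% (8.29 to 10.9), in the first. The intervals of both segments overlap between the libraries. Ratios of the library labelled dKO over the other were 0.836 (0.701 to 0.998) and 1.27 (1.05 to 1.54), and both of these intervals exclude 1.

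*Trbv1* had 9.09% (7.89 to 10.4) of clonotypes in the library labelled WT and 7.36% (6.25 to 8.59) in that labelled dKO. *Trbv3* had 8.46% (7.30 to 9.75) and 7.71% (6.57 to 8.97). *Trbv31*, the only V segment behind the constant genes, had 8.27% (7.12 to 9.54) and 9.82% (8.55 to 11.2). *Trbv13-1* had 7.16% (6.08 to 8.35) and 9.42% (8.17 to 10.8). These intervals also overlap, while that of the ratio, 1.32 (1.06 to 1.64), excludes 1. Frequent segments lay at both ends of the locus. *Trbv30*, the last V segment before the D segments, was the least used, with 6 and 10 clonotypes. *Trbv13-2* and *Trbv13-3* share 91.5% of 270 aligned bases and *Trbv13-1* and *Trbv13-2* 88.1%, and the *Trbv13* family held 27.8% and 28.0% of clonotypes.

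**Figure D1:**
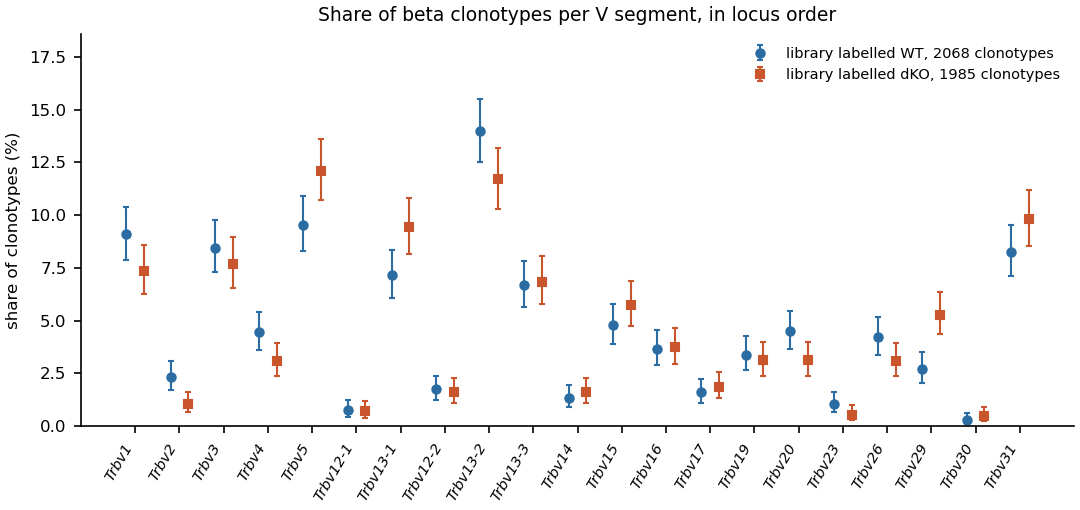
Share of beta clonotypes (percent, linear axis) for each of the 21 V segments in their order along the locus, for the library labelled WT (circles) and the library labelled dKO (squares), with exact 95% intervals for counting error. Both libraries peak at Trbv13-2 and Trbv5, and Trbv29 and Trbv2 are the segments past 1.5-fold whose intervals do not overlap.

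For lack of replicates, a rule of size took the place of a test: a segment is listed where its shares of clonotypes differ by over 1.5-fold and the compared groups hold at least 20 clonotypes with it in all. Of the 20 V segments that could be listed, 3 were (15.0% called), 1 of them higher and 2 lower (10.0%) in the library labelled dKO. With Cell Ranger's own clonotype numbers, 5 were. *Trbv29* was higher in the library labelled dKO, with 105 clonotypes, 5.29% (4.35 to 6.37), against 56, 2.71% (2.05 to 3.50), a ratio of 1.95 (1.40 to 2.75). *Trbv2* was lower, with 21 clonotypes, 1.06% (0.656 to 1.61), against 48, 2.32% (1.72 to 3.07), a ratio of 0.456 (0.259 to 0.776). *Trbv23* was also lower, at 0.554% (0.277 to 0.989) against 1.06% (0.668 to 1.61), with 11 and 22 clonotypes and a ratio of 0.521 (0.228 to 1.12), an interval that includes 1. For the other 17 segments with enough clonotypes, the shares were within 1.5-fold. The nearest to it were *Trbv4*, with a ratio of 0.691 (0.491 to 0.965), and *Trbv20*, with 0.695 (0.495 to 0.968). Across the 21 V segments, Pearson's r of the shares was 0.93, a description over segments that share the same libraries, and shares differed by 10.9 percentage points in all (the summed absolute difference divided by 2).

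Clonotypes found in 1 cell are most of the same clonotypes, so their shares are a breakdown and no separate evidence. Among them, *Trbv29* had 2.84% (2.12 to 3.72) in the library labelled WT and 5.31% (4.25 to 6.55) in that labelled dKO, and *Trbv2* had 2.12% (1.5 to 2.89) and 1.17% (0.693 to 1.84). The intervals of *Trbv29* stay apart and those of *Trbv2* overlap. *Trbv23* had 1.06% and 0.713%, which is under 1.5-fold.

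Counted by cells, V shares differed from those by clonotypes by 7.41 percentage points in all in the library labelled WT and by 14.0 in that labelled dKO. *Trbv13-1* gained most in both. Its share went from 7.16% of clonotypes to 9.96% of cells (8.98 to 11.0) in the library labelled WT, where its largest clonotype held 87 of 344 cells. In the library labelled dKO it went from 9.42% to 21.1% (19.9 to 22.4), and the clonotype with *Trbj2-4* shown above held 475 of 866 cells, 11.6% of all TRB cells. Of those 475 cells, 180 had a *Foxp3* UMI. Without the largest clonotype of each library, *Trbv13-1* had 7.63% and 10.8% of cells. By cells, 10 of 21 V segments were past 1.5-fold between the libraries (47.6% called). The 475 cells of the largest clonotype are in the total of the library labelled dKO and lower the shares of its other V segments. The count of 10 was not recomputed without them. Cells of 1 clone share their receptor, so intervals by cells are too narrow for comparing the repertoires.

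Other segments carried single large clones too. *Trbv19* in the library labelled dKO had 62 clonotypes and 154 cells, 71 of them in 1 clonotype, and *Trbv31* in the library labelled WT had 285 cells, 68 of them in 1 clonotype. At the other end, *Trbv26* in the library labelled dKO had 61 clonotypes and 71 cells, with at most 4 cells per clonotype, and *Trbv20* had 62 clonotypes and 80 cells, also with at most 4. *Trbv13-2* had 11.7% of clonotypes but 8.52% of cells (7.68 to 9.42) in that library, while in the library labelled WT it had 14.0% by both counts. The mean was 4.63 cells per clonotype for *Trbv13-1* and 1.5 for *Trbv13-2* in the library labelled dKO. The effective number of V segments, the exponential of the Shannon entropy, was 16.1 by clonotypes and 15.0 by cells in the library labelled WT, and 15.6 and 13.5 in that labelled dKO.

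**Figure D2:**
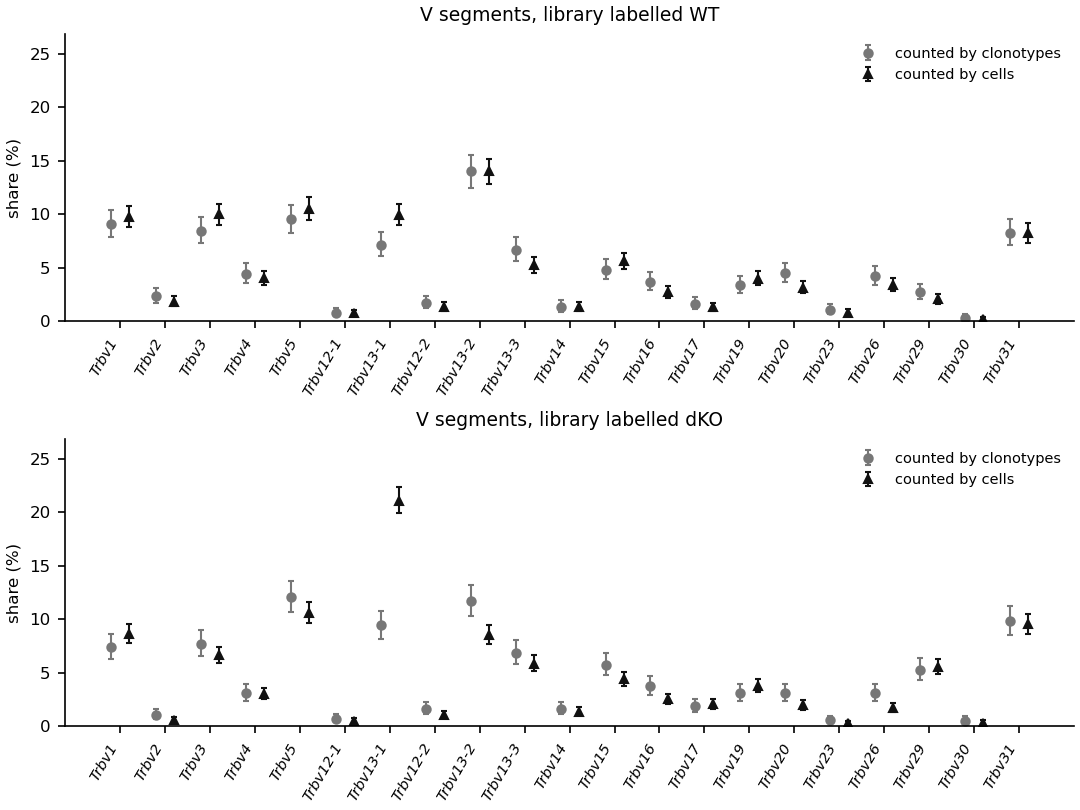
Share (percent) of each V segment in locus order, counted by clonotypes (circles) and by cells (triangles) in the library labelled WT (upper panel) and labelled dKO (lower panel), with exact 95% intervals for counting error. Trbv13-1 in the library labelled dKO stands at 9.42% of clonotypes and 21.1% of cells.

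The second cluster, *Trbj2*, held 64.2% (62.1 to 66.2) of clonotypes in the library labelled WT and 64.4% (62.2 to 66.5) in that labelled dKO. *Trbj2-7* was the most used segment, with 344 clonotypes, 16.6% (15.1 to 18.3), and 347, 17.5% (15.8 to 19.2). It was followed by *Trbj2-5*, with 13.0% in both. *Trbj2-3* and *Trbj1-1* came next in the first library, with 11.1% and 10.9%, and *Trbj2-1* with 10.5% in the second, followed by *Trbj1-1* and *Trbj2-3* with 9.77% each. *Trbj2-4* had 7.88% and 8.01%, *Trbj1-3* 6.58% and 5.59%, *Trbj1-4* 6.43% and 6.70%, *Trbj2-2* 6.19% and 5.54%, and *Trbj1-2* 5.80% and 5.69%. Neighbours in this order mostly have overlapping intervals.

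*Trbj1-5* and *Trbj1-6* were the least used J segments of the library labelled WT, with 64 and 63 clonotypes. Of 12 J segments, 1 passed 1.5-fold between the libraries (8.33% called): *Trbj1-6*, with 63 clonotypes, 3.05% (2.35 to 3.88), and 92, 4.63% (3.75 to 5.65), a ratio of 1.52 (1.09 to 2.13) whose shares have overlapping intervals. Among clonotypes found in 1 cell, its shares were 3.01% (2.27 to 3.91) and 3.95% (3.04 to 5.05), a ratio of 1.31, under the rule. By cells, 3 of 12 passed (25.0% called), *Trbj2-4*, *Trbj1-6* and *Trbj2-3*. *Trbj2-4* had 6.86% (6.04 to 7.75) and 18.1% (16.9 to 19.3), and the largest clonotype accounted for 475 of its 740 cells in the library labelled dKO. *Trbj1-6* had 2.84% (2.31 to 3.45) and 5.88% (5.18 to 6.65) of cells, with 0 and 4 clonotypes of 10 or more cells. Without clonotypes of that size it had 3.80% and 5.24%, a ratio of 1.38 in place of 2.07. *Trbj2-3* had 12% and 7.32% of cells, with the largest clonotypes counted in the totals, and a ratio of 0.883 (0.725 to 1.07) by clonotypes.

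**Figure D3:**
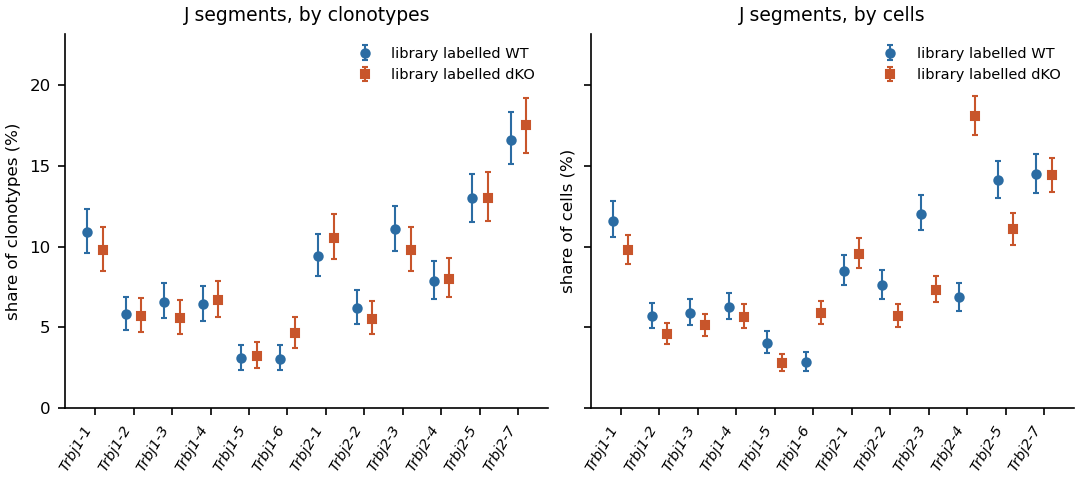
Share (percent) of each of the 12 J segments in locus order, by clonotypes (left) and by cells (right), for the library labelled WT (circles) and labelled dKO (squares), with exact 95% intervals for counting error. The libraries lie close together by clonotypes, and Trbj2-4 stands apart by cells at 6.86% and 18.1%.

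The order of segments in the locus sets which constant gene a J segment is spliced to, since each J cluster lies just before its own constant gene. All 1133 and 1212 cells with a *Trbj1* contig and an assigned constant gene had TRBC1, and all 2111 and 2572 with a *Trbj2* contig had TRBC2. A D segment was assigned to a minority of contigs. *Trbd2* lies between the J clusters and was assigned to 1 *Trbj1* cell in each library, against 217 and 251 *Trbj2* cells. *Trbd1* was assigned to 249 and 201 *Trbj1* cells and to 223 and 207 *Trbj2* cells.

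The number of clonotypes of each V and J pair was compared with the product of the separate V and J shares. Of 252 possible pairs, 231 were seen in the library labelled WT, and the 20 pairs with at least 20 expected clonotypes had between 0.598 and 1.61 times the expected number, with a median of 1.02. The other library had 233 of them, and 18 such pairs lay between 0.594 and 1.26, with a median of 1.04. *Trbv1* with *Trbj1-1* had 33 clonotypes against 20.5 expected in the first library (ratio 1.61, 1.11 to 2.26), and *Trbv31* with *Trbj2-7* had 17 against 28.4 (0.598, 0.349 to 0.955). In the other library the first pair had 15 against 14.3 (1.05, 0.589 to 1.73) and the second 34 against 34.1 (0.997, 0.692 to 1.39). Among pairs with fewer expected clonotypes, *Trbv15* with *Trbj2-7*, singled out after its values were seen, was above the product in both libraries, with 30 against 16.5 (1.82, 1.23 to 2.59) and 31 against 19.9 (1.56, 1.06 to 2.20).

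The CDR3, counted from its first cysteine to the last phenylalanine, had a mean length of 13.91 ± 1.35 amino acids (SD over 2068 clonotypes) in the library labelled WT and 13.78 ± 1.35 (SD over 1985 clonotypes) in that labelled dKO, with a median of 14.0 in both. Clonotypes are not replicates of a genotype. CDR3s of 16 or more amino acids made up 10.5% (9.25 to 11.9) and 8.31% (7.13 to 9.61) of clonotypes, and those of 12 or fewer 14.1% (12.6 to 15.7) and 16.3% (14.7 to 18.0). By cells, the former had 11.2% (10.2 to 12.3) and 6.35% (5.62 to 7.14), and the largest clonotypes have CDR3s of 16 amino acids in the library labelled WT and 14 in that labelled dKO.

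Mean lengths differed from segment to segment. *Trbj2-7*, which brings 19 germline bases to the CDR3, had a mean of 13.33 amino acids in both libraries, while *Trbj2-2*, which brings 23, had 14.63 and 14.25. Of the frequent V segments, *Trbv5* had the longest CDR3s, with 14.64 and 14.23 amino acids and 15.4 and 15.2 germline bases kept, and *Trbv20*, whose germline part is 14 bases, had 13.19 and 12.98. On average 13.7 and 13.5 V bases and 18.2 J bases in both libraries matched the germline, and 9.78 ± 3.91 and 9.62 ± 3.99 bases (SD over clonotypes) lay between them. The longest run matching a D segment averaged 6.41 and 6.29 of these, and 3.37 and 3.32 bases lay outside it.

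Cells were then divided by *Foxp3*, the transcription factor of regulatory T cells (Tregs). At least 1 *Foxp3* UMI was found in 236 of 3455 TRB cells in the library labelled WT, 6.83% (6.01 to 7.72), and in 1213 of 4096 in that labelled dKO, 29.6% (28.2 to 31.0). As a measure of free RNA, cells with at least 3 UMIs of *Siglech*, a marker of plasmacytoid dendritic cells, and no TRB contig had a *Foxp3* UMI in 0.949% (0.435 to 1.79) and 5.18% (4.45 to 5.98). Median depths were 2216 and 1758 UMIs in TRB cells and 2526 and 3081 in *Siglech* cells. At 1000 UMIs per cell, the shares were 3.52% and 17.7% in TRB cells, with 184 and 477 shallower cells left out, and 0.238% and 1.55% in *Siglech* cells. Tregs without a captured *Foxp3* UMI fall on the other side.

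The *Foxp3* sides gave 223 and 1885 clonotypes in the library labelled WT and 633 and 1564 in that labelled dKO. In the first library 40 clonotypes had cells on both sides, 17.9% of those with and 2.12% of those without a *Foxp3* UMI, and in the second 212, which are 33.5% and 13.6%. These are counted on both sides. Cells with a *Foxp3* UMI were deeper, with medians of 3125 against 2183 UMIs and 2259 against 1632. All 4 other markers fixed for Tregs moved with the division: in the library labelled WT *Il2ra* had 281 against 42.4 CPM, *Ikzf2* 814 against 119 CPM, *Ctla4* 1360 against 311 CPM and *Tnfrsf18* 448 against 197 CPM. In that labelled dKO they had 169 against 67.5 CPM, 932 against 484 CPM, 2007 against 1088 CPM and 903 against 586 CPM. Neutrophil markers stood at 5.33 CPM with and 252 CPM without a *Foxp3* UMI in the library labelled dKO. In the library labelled WT, markers of plasmacytoid dendritic cells stood at 293 against 476 CPM and those of myeloid cells at 155 against 234 CPM. The part of these cells in the comparisons was not tested.

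Within the library labelled WT, 5 of 19 V segments passed 1.5-fold between the *Foxp3* sides (26.3% called), 2 of them higher (10.5%) and 3 lower (15.8%). The count was 10 with at least 2 *Foxp3* UMIs asked of a cell and 8 at 1000 UMIs per cell. *Trbv2* was higher with a *Foxp3* UMI, at 4.04% against 2.12% of clonotypes, and so was *Trbv16*, at 5.38% against 3.45%. *Trbv29* was lower at 0.897% against 2.92%, *Trbv20* at 3.14% against 4.72% and *Trbv14* at 0.897% against 1.43%. These rest on 9, 12, 2, 7 and 2 clonotypes with a *Foxp3* UMI, and every ratio has an interval that includes 1: 1.90 (0.811 to 3.98), 1.56 (0.767 to 2.91), 0.307 (0.0363 to 1.16), 0.665 (0.260 to 1.43) and 0.626 (0.0722 to 2.49). At 1000 UMIs per cell, *Trbv16* turned to a log2 ratio of -1.09 from 0.64.

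Within the library labelled dKO, 4 of 18 passed (22.2% called), 1 of them higher (5.56%) and 3 lower (16.7%) with a *Foxp3* UMI, and counts were larger. At 1000 UMIs per cell 2 passed. *Trbv26* was higher with a *Foxp3* UMI, with 30 clonotypes, 4.74% (3.22 to 6.70), against 35, 2.24% (1.56 to 3.10), a ratio of 2.12 (1.26 to 3.55). *Trbv13-2*, which is also the leading segment of invariant NKT cells, was lower, with 53 clonotypes, 8.37% (6.33 to 10.8), against 199, 12.7% (11.1 to 14.5), a ratio of 0.658 (0.477 to 0.895). *Trbv4* had 1.74% (0.871 to 3.09) against 3.71% (2.83 to 4.77), a ratio of 0.469 (0.222 to 0.902), and *Trbv2* had 0.632% against 1.09%, from 4 and 17 clonotypes, a ratio of 0.581 (0.142 to 1.78). At 1000 UMIs per cell, where 477 shallower cells are left out and 17.7% of the rest have a *Foxp3* UMI, the log2 ratio of *Trbv26* was 0.13 in place of 1.08, that of *Trbv13-2* -0.42 in place of -0.60 and that of *Trbv4* -0.48 in place of -1.09, all under the rule. The part of depth in these differences was not tested. Without invariant receptors *Trbv13-2* had -0.54, also under the rule. With all TRB contigs counted, *Trbv2* had -0.56 in place of -0.78, under the rule as well.

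**Figure D4:**
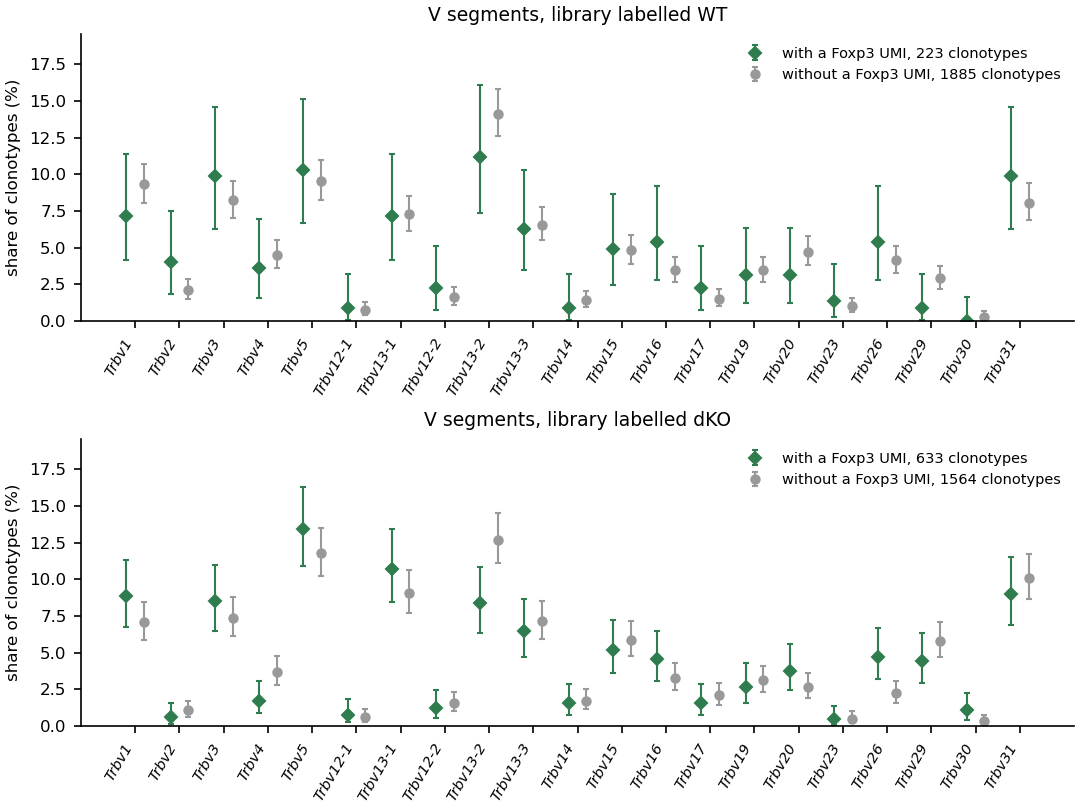
Share of clonotypes (percent) of each V segment in locus order, with a Foxp3 UMI (diamonds) and without one (circles), in the library labelled WT (upper panel) and labelled dKO (lower panel), with exact 95% intervals for counting error. Intervals are wide for the 223 clonotypes with a Foxp3 UMI in the library labelled WT, and in that labelled dKO Trbv26 and Trbv13-2 have intervals that do not overlap.

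Between the libraries on the same side, 1 of 13 V segments passed 1.5-fold with a *Foxp3* UMI (7.69% called). This was *Trbv29*, with 28 of 633 clonotypes against 2 of 223 and a ratio of 4.93 (1.24 to 42.7), though the intervals of its shares overlap. *Trbv2*, under the minimum of 20 clonotypes and singled out after its values were seen, had 4 of 633 against 9 of 223, a ratio of 0.157 (0.0352 to 0.561). Without a *Foxp3* UMI, 5 of 20 passed (25.0% called). *Trbv29* was again higher in the library labelled dKO, at 5.82% (4.71 to 7.10) against 2.92% (2.21 to 3.78), a ratio of 1.99 (1.41 to 2.84). The other 4 were lower there. *Trbv26* had 2.24% against 4.14% (0.541, 0.352 to 0.816), *Trbv20* 2.69% against 4.72% (0.569, 0.384 to 0.830), *Trbv2* 1.09% against 2.12% (0.512, 0.272 to 0.924) and *Trbv23* 0.512% against 1.01% (0.507, 0.192 to 1.21).

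By cells, 8 of 20 V segments passed between the *Foxp3* sides of the library labelled WT (40.0% called) and 5 of 19 between those of the library labelled dKO (26.3% called). *Trbv2* had 4.24% of cells with and 1.65% without a *Foxp3* UMI in the first (2.57, 1.17 to 5.11), on 10 and 53 cells. In the second, *Trbv26* had 2.80% and 1.28% (2.18, 1.33 to 3.58) and *Trbv19* 2.31% and 4.37% (0.528, 0.338 to 0.800). Of the 154 *Trbv19* cells in the library labelled dKO, 71 were of 1 clonotype. By clonotypes, the *Trbv19* ratio was 0.857 (0.463 to 1.51), within 1.5-fold. Between the libraries, 6 of 15 passed by cells with a *Foxp3* UMI (40.0% called) and 9 of 20 without (45.0% called). With a *Foxp3* UMI, *Trbv13-1* had 320 of 1213 cells in the library labelled dKO, 26.4%, against 17 of 236, 7.2% (3.66, 2.25 to 6.37), and 180 of the 320 were of its largest clonotype. Without the largest clonotype of each library, the ratio was 1.88. Of the 140 *Trbv13-1* cells then left in the library labelled dKO, 51 were of its second largest clonotype, shown above with *Trbj2-5*. The ratio was not recomputed without that clonotype. By clonotypes, *Trbv13-1* had 10.7% against 7.17%, under the rule, and the interval of the ratio includes 1 (0.859 to 2.77). *Trbv29* had 4.45% of cells against 0.847% (5.25, 1.39 to 44.5) and *Trbv13-2* 6.76% against 11.4% (0.591, 0.378 to 0.95). By clonotypes, the *Trbv13-2* ratio was 0.747 (0.456 to 1.25), within 1.5-fold. *Trbv16*, *Trbv26* and *Trbv4* were lower by cells, at ratios of 0.632, 0.551 and 0.657 with intervals that include 1. On both sides, the largest clonotype is in the totals of the library labelled dKO and lowers the shares of its other V segments. Their ratios were not recomputed without it. Without a *Foxp3* UMI, *Trbv13-1* had 18.9% against 10.2% (1.86, 1.62 to 2.14), and 295 of its 546 cells in the library labelled dKO were of the largest clonotype. Without the largest clonotypes it had 9.70% against 7.66%, a ratio of 1.27, under the rule. *Trbv29* had 5.97% against 2.14% (2.78, 2.09 to 3.74), and *Trbv26* was lower at 1.28% against 3.23% (0.397, 0.265 to 0.583).

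Of the 12 J segments, 3 passed between the *Foxp3* sides of the library labelled WT (25.0% called). These were *Trbj1-6* at 5.38% against 2.81%, *Trbj1-5* at 1.79% against 3.24% and *Trbj2-3* at 7.17% against 11.5%, and their ratios of 1.91 (0.931 to 3.63), 0.554 (0.146 to 1.49) and 0.626 (0.352 to 1.04) all have intervals that include 1. *Trbj2-7* had 21.1% (15.9 to 27.0) against 16.1% (14.5 to 17.9). In the library labelled dKO 0 of 12 passed (0% called), and the largest difference in percentage points was that of *Trbj2-1*, at 11.4% against 9.85%. Between the libraries, *Trbj1-6* passed without a *Foxp3* UMI, at 4.73% against 2.81% (1.68, 1.17 to 2.44), as 1 of 12 (8.33% called). With a *Foxp3* UMI *Trbj1-5* did so, also 1 of 12 (8.33% called), on 18 and 4 clonotypes (1.59, 0.522 to 6.44). By cells, 3 of 12 J segments passed between the sides of the library labelled WT (25.0% called), among them *Trbj2-3* at 6.78% against 12.4% (0.546, 0.309 to 0.897), and 0 of 12 in the library labelled dKO (0% called). Between the libraries, 2 of 12 passed by cells with a *Foxp3* UMI (16.7% called), *Trbj2-4* at 21.1% against 7.63% (2.77, 1.72 to 4.74) and *Trbj2-7* at 12.5% against 20.8% (0.604, 0.435 to 0.851), and 3 of 12 without (25.0% called). Of the 256 *Trbj2-4* cells with a *Foxp3* UMI in the library labelled dKO, 180 were of the largest clonotype, and without it the share was 7.36% (ratio 0.965). These 180 cells are also in the total that lowers the share of *Trbj2-7*, whose ratio by cells was not recomputed without them. By clonotypes, the *Trbj2-7* ratio was 0.795 (0.559 to 1.15).

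CDR3s with a *Foxp3* UMI had a mean of 13.89 ± 1.32 amino acids (SD over 223 clonotypes) against 13.91 ± 1.35 (SD over 1885) in the library labelled WT. In the library labelled dKO they had 13.65 ± 1.36 (SD over 633 clonotypes) against 13.82 ± 1.34 (SD over 1564). Lengths of 12 or fewer amino acids made up 18.8% (15.8 to 22.1) against 15.6% (13.8 to 17.5) in that library, with overlapping intervals. The bases between V and J averaged 9.15 ± 3.96 against 9.72 ± 3.94 there and 9.87 ± 4.11 against 9.76 ± 3.87 in the library labelled WT. By cells, the mean lengths in the library labelled dKO were 13.83 and 13.82.

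**Figure D5:**
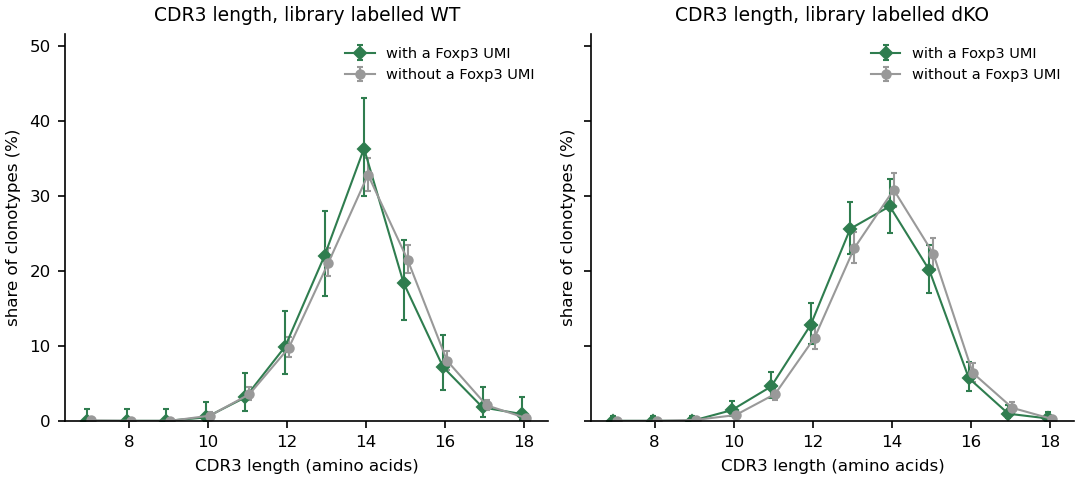
Share of clonotypes (percent) at each CDR3 length in amino acids, with a Foxp3 UMI (diamonds) and without one (circles), in the library labelled WT (left) and labelled dKO (right), with exact 95% intervals for counting error and points of 1 length set slightly apart. All 4 distributions are centred on a median of 14.0, and the means with a Foxp3 UMI are 13.89 and 13.65.

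Few receptors were found in both libraries. By V, J and CDR3 nucleotides 5 clonotypes were shared, 0.242% and 0.252% of each library, by V, J and CDR3 amino acids 15, and by CDR3 amino acids alone 38. The cells of shared clonotypes had no barcode in common. The 3 with the most cells are printed with the bases between the germline matches in capitals.
Trbv13-1 with Trbj1-2, 1 and 13 cells: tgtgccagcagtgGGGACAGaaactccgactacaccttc
Trbv3 with Trbj1-5, 11 and 1 cells: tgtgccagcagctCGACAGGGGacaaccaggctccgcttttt
Trbv15 with Trbj1-1, 2 and 4 cells: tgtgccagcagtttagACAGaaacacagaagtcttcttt
Their bases between V and J number 7, 9 and 4, and 7, 8 and 4 of these form a run of *Trbd1*. Over the 30 clonotypes behind the 15 receptors shared by amino acids, the bases between V and J averaged 8.10 ± 2.86 (SD over clonotypes), of which 1.23 lay outside the longest D run, against 9.71 ± 3.95 and 3.36 in the 4023 clonotypes found in 1 library. Within a library, 16 and 13 receptors were encoded by several nucleotide forms.

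Invariant NKT cells, which carry TRAV11 with TRAJ18, had *Trbv13-2* and *Trbv29* most often, among 10 V segments in each library. Of 54 such cells with a TRB contig in the library labelled WT, 30 had *Trbv13-2*, 7 *Trbv29*, 6 *Trbv1* and 4 *Trbv13-1*. Of 57 in the library labelled dKO, 19 had *Trbv13-2*, 14 *Trbv29*, 7 *Trbv13-1*, 6 *Trbv1* and 5 *Trbv13-3*. *Foxp3* UMIs were found in 0 and 2 of them. They account for 7 of the 56 and 13 of the 105 *Trbv29* clonotypes, and the log2 ratio of *Trbv29* between the libraries was 0.97 with and without invariant receptors.

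The RNA libraries also read the V segment of the same cells, so they are no independent evidence on its use. A *Trbv* UMI was present in 91.1% and 89.5% of TRB cells, and 84.0% and 87.9% of these UMIs came from the gene that the contig named. Most segments had between 2.63 and 6.41 UMIs of their own gene per cell, but *Trbv5* had 0.208 and *Trbv4* 0.506, so RNA shares of both are far below their contig shares. Of the 16 *Trbv* genes with at least 20 CPM in TRB cells of a library, 2 were past 1.5-fold higher in the library labelled dKO (12.5% called), against 7.97% of all 6523 such genes, and 4 were lower (25.0% called), against 6.25%. *Trbv29* had 33.8 and 81.3 CPM (log2 ratio 1.27) and *Trbv13-1* 160 and 276 (0.79). The lower ones were *Trbv2*, with 24.9 and 12.3 CPM (-1.02), *Trbv20* (-0.68), *Trbv3* (-0.63) and *Trbv26* (-0.60). *Trbv23*, under the filter, had 12.9 and 5.50 CPM. The median log2 ratio was -0.16 over the 16 genes and 0.01 over all genes. RNA levels weigh a segment by its cells and not by its clonotypes. In the library labelled dKO, 475 of the 866 *Trbv13-1* cells were of 1 clonotype.

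Genes of V(D)J recombination and of the receptor complex gave the setting in which these chains were found. *Rag1* had 0 UMIs among the 9711347 and 9813192 UMIs of TRB cells, with upper bounds of 0.380 and 0.376 CPM, and *Rag2* had 1 and 0. *Dntt*, the polymerase that adds nucleotides at the joints in the thymus, had 9.68 CPM (7.82 to 11.8) and 10.6 CPM (8.66 to 12.8) in TRB cells, below its 46.0 and 49.7 CPM in the cells without a TRB contig. The constant genes *Trbc1* and *Trbc2* had 110 and 258 CPM in the library labelled WT and 88.9 and 180 CPM in that labelled dKO, and *Trac*, that of the alpha chain, 315 and 332 CPM. *Cd3d*, *Cd3e* and *Cd3g*, which encode the signalling chains of the CD3 complex, had 702, 871 and 834 CPM and 931, 1048 and 1050 CPM, and *Cd247*, its zeta chain, 355 and 292 CPM. Of these 10 genes, 8 had UMIs in both libraries, and 0 of the 8 passed 1.5-fold between them, against 7.97% of all genes of at least 20 CPM higher and 6.25% lower. Between the *Foxp3* sides 0 of 8 did in the library labelled WT, where 9.37% of 6646 genes with at least 20 CPM on a side were higher and 5.45% lower. In that labelled dKO 1 of 8 did, where 3.85% of 6470 genes were higher and 2.83% lower. This was *Dntt*, at 4.49 CPM (2.57 to 7.29; 16 UMIs) with and 14.1 CPM (11.3 to 17.3; 88 UMIs) without a *Foxp3* UMI, under 20 CPM on both sides and so not among the 6470 genes. Summed markers of plasmacytoid dendritic cells stood at 796 and 987 CPM on these sides, and 918 CPM in TRB cells compares with 4132 CPM in the cells without a TRB contig. Their part in the *Dntt* values was not tested.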

How the data were processed

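Hepatic CD4+ T cells were profiled in 4 samples, an RNA and a T cell receptor library for each genotype. The authors deposited UMI counts per gene and cell from Cell Ranger 7.0.1 on mm10, without normalization, and contig tables with the V, D, J and C gene, the CDR3, and the read and UMI counts of each contig. Kept were cells in which over 200 genes were detected and less than 5% of counts were mitochondrial, as in the study's methods. Doublets were not called, and TRB cells with 2 TRB contigs, 155 and 87, were kept with the contig of most UMIs. The RNA tables hold 23494155 and 37966611 UMIs.

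V values were matched to GENCODE M21 transcripts by the sequence from framework 1 to 3. CDR3s were divided by exact matching to the V end and the J start, so chance matches shorten the part between. Shares, ratios and CPM were computed with Python 3.11.15, numpy 2.4.6, pandas 2.3.3 and scipy 1.17.1, and TMM factors with edgeR 4.0.16 in R 4.3.3. Figures were drawn with matplotlib 3.10.9. No test was made, as each genotype is 1 library. PCR copies were collapsed by UMI, and each cell counts once. The computation was tested on simulated data.

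Segments named were the 6 most used V segments, those past 1.5-fold by clonotypes in a comparison, and all J segments. Those that gained most from clonotypes to cells were also named, and some but not all of those past 1.5-fold by cells. For sequences, the 3 largest clonotypes per library and the 3 shared ones with most cells were taken, and the recombination signals beside the segments were not analysed here. The members and lists were chosen with earlier results of these data known. Alternatives covered the contig taken, the cell filter, the clonotype definition, large and invariant clones, the *Foxp3* call and the RNA filter and scaling. Single-cell clonotypes, length limits of 12 and 16 amino acids and the J germline lines were picked after the values were seen.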

Additional observations from a re-analysis of the deposited data

Results flagged for a closer look

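*Trbv2* differed in opposite directions between the *Foxp3* sides of the libraries. The ratio of its clonotype shares, with over without a *Foxp3* UMI, was 1.90 in the library labelled WT and 0.581 in that labelled dKO. The difference between the libraries was not tested, and the ratios rest on 9 and 4 clonotypes with a *Foxp3* UMI. Both have intervals that include 1 (0.811 to 3.98 and 0.142 to 1.78). With all TRB contigs counted, the ratio in the library labelled dKO was under the rule (log2 ratio -0.56 in place of -0.78).

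Cells outside the comparisons, with no TRB contig, held 8896 *Trbv* UMIs in the library labelled WT and 13664 in that labelled dKO, in 48.5% of 7101 and 43.4% of 13366 such cells. *Cd3e* UMIs were found in 51.7% and 55.3% of them. Their *Trbv* UMIs had another make-up than those of TRB cells: *Trbv19* took 9.99% and 14.0% of them against 4.69% and 5.90% in TRB cells, and *Trbv2* 4.75% and 3.04% against 1.63% and 0.816%. *Trbv29* took 2.06% and 2.70%, against 2.21% and 5.38%.

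A second TRB contig was found in 155 cells of the library labelled WT and in 87 of that labelled dKO. The stronger contig had a median of 8 UMIs in both libraries and the weaker one 4. *Trbv31* was the V segment of 16 of the weaker contigs in each library, 10.3% and 18.4%, and of 4 and 6 of the stronger ones. These cells had medians of 4399 and 3505 RNA UMIs, against 2216 and 1758 in all TRB cells.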

How the results depend on the processing

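In all, 90 values were recomputed under up to 15 alternatives, and 819 of 858 recomputed values stayed on their side of the rule or within their tolerance. These tolerances were the exact interval of a share, 10% of an effective number, 0.1 amino acids of a mean length and 1.5 times a count. *Trbv29* and *Trbv2* passed 1.5-fold between the libraries under every alternative run for that comparison, and *Trbv23* under all but the count of clonotypes found in 1 cell (log2 ratio -0.57 in place of -0.94), which was added after the data were seen, while mean CDR3 lengths moved by less than 0.1 amino acids under each run for them. The number of V segments past 1.5-fold between the libraries was 5 in place of 3 with the clonotype numbers of Cell Ranger. Between the *Foxp3* sides of the library labelled WT it was 10 with at least 2 *Foxp3* UMIs and 8 with cells thinned to 1000 UMIs, in place of 5, and in the library labelled dKO 2 in place of 4 with thinned cells. *Trbv16* reversed to a log2 ratio of -1.09 with thinned cells. The other values that no longer passed 1.5-fold were all ratios of single segments between the *Foxp3* sides. The cause was not tested. Without the largest clonotype of each library, *Trbv13-1* had 7.63% and 10.8% of cells, and in the library labelled dKO *Trbv5* had 12% of cells, *Trbj2* 61.7% and the effective number of V segments was 14.9. With V names as deposited, an alternative chosen after the data were seen, *Trbv13-2* had 2.26% of clonotypes and 1.77% of cells in the library labelled WT, since most of its contigs bear another name. With RNA genes of at least 5 CPM, 11 of 22 *Trbv* genes passed 1.5-fold in place of 6 of 16, and with TMM factors 6 did. No paired analysis was possible because each genotype is 1 library and the labels carry no replicate numbers. For the same reason no library could be left out. With 223 clonotypes, the library labelled WT limits what can be said of V usage with a *Foxp3* UMI. The shares of *Trbj1-6* by clonotype size and those of *Trbv13-1* and *Trbj2-4* on the *Foxp3* sides without the largest clonotypes were also chosen after the data were seen.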
